A study of Homo sapiens with 6 samples.

Results

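Genes of sterol and fatty acid synthesis, a program driven by the sterol regulatory element-binding proteins (SREBPs), were examined together with regulators of that program. The cells were NCI-H660, an established line of neuroendocrine prostate cancer. The members are 34 gene symbols listed for their known roles, with earlier results of these data known, and all 34 were among the 17177 genes of the table. They were read as 18 enzymes of sterol synthesis, 7 genes grouped as sterol regulators and uptake, and 9 genes of fatty acid synthesis. No receptor for sterol uptake was among the 34. The cells, labelled as wild type (WT), received PP (pyrvinium pamoate) or its control PBS and were collected on day 3, with 3 libraries for each treatment. The dose of PP is not in the labels. The labels do not say whether the libraries of a treatment came from separate cultures, and the paper speaks of independent samples in a legend and of duplicates in its methods, so the p-values measure the spread between these libraries, which may be technical. The comparison asks how the transcripts of the lipid synthesis program stood after PP, a drug that the study used as an inhibitor of ELAVL3.

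Cells make cholesterol from acetyl-CoA through mevalonate, squalene and lanosterol, and they make fatty acids from the same acetyl-CoA through malonyl-CoA. The SREBPs are membrane-bound transcription factors of the endoplasmic reticulum. When sterols are low, SCAP carries them to the Golgi, where proteases release the part that enters the nucleus, and when sterols are high the INSIG proteins hold SCAP back. SREBP2, the product of *SREBF2*, acts mostly on sterol genes, and SREBP1, the product of *SREBF1*, mostly on fatty acid genes.

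With PP, the fatty acid genes fell together, the sterol enzymes moved in both directions and the feedback gene *INSIG1* had the lowest log2 fold change of the members. Of the 33 members whose FPKM (a count of fragments divided by gene length and by library depth) averaged 1 or more, limma called 21 as lower and 3 as higher at a Benjamini-Hochberg adjusted p under 0.05. Among all 11726 genes tested in the same fit, 34.4% were lower, 38.1% were higher and 72.5% were called in either direction, so a call by itself was common in these libraries. The median log2 fold change, taken as log2(FPKM + 1) with PP less that with PBS, was -0.23 over the 33 members and 0.02 over all genes tested. The 3 PP libraries lay below the 3 PBS libraries in 20 of the 33 members and above them in 3, against 35.5% and 39.5% of all genes tested. At the stricter cutoff of an unadjusted P under 0.001 and a log2 fold change below -1, which 2.93% of all genes tested passed, *INSIG1* was the 1 member called, and no member passed the cutoff in the other direction (2.24% of all genes tested).

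The depth of the libraries was alike, with 29064253 to 32481171 recovered counts. Of the markers of the labelled cell type, all 6 neuroendocrine genes examined were present, and their summed FPKM was 204 to 216 in the PBS libraries and 166 to 182 in the PP libraries. Of these 6 genes, limma called 4 as lower and 1 as higher, against 34.4% and 38.1% of all genes tested. *CHGA*, the lowest of the 6 in log2 fold change (-0.78), was at 43.3 ± 0.871 FPKM (SD, n = 3) with PBS and 24.8 ± 1.10 with PP. *INSM1* was the 1 that rose, from 16.5 ± 0.978 to 19.3 ± 1.17 FPKM, and *NCAM1* was not called (15.4 FPKM with either treatment). The part of these 6 genes in the lipid gene results was not tested. The luminal prostate markers *KLK3* and *KLK2* were not among the deposited genes, and *TMPRSS2*, also a luminal marker, was at 0.308 to 1.27 FPKM in the 6 libraries. The 5 immune markers summed to 2.15 to 3.09 FPKM and the 6 stromal and endothelial markers to 4.82 to 5.38 FPKM, and 3 of these 11 genes averaged 1 FPKM or more. Of the 3, *COL1A1* was called (3.30 ± 0.133 FPKM with PBS and 4.16 ± 0.118 with PP), and of the markers below that level *TMPRSS2*, *COL1A2* and *VWF* were lower in the fit at a mean of 0.1 FPKM. The libraries are bulk RNA, so fewer expressing cells and less RNA per cell cannot be told apart.

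**Figure D1:**
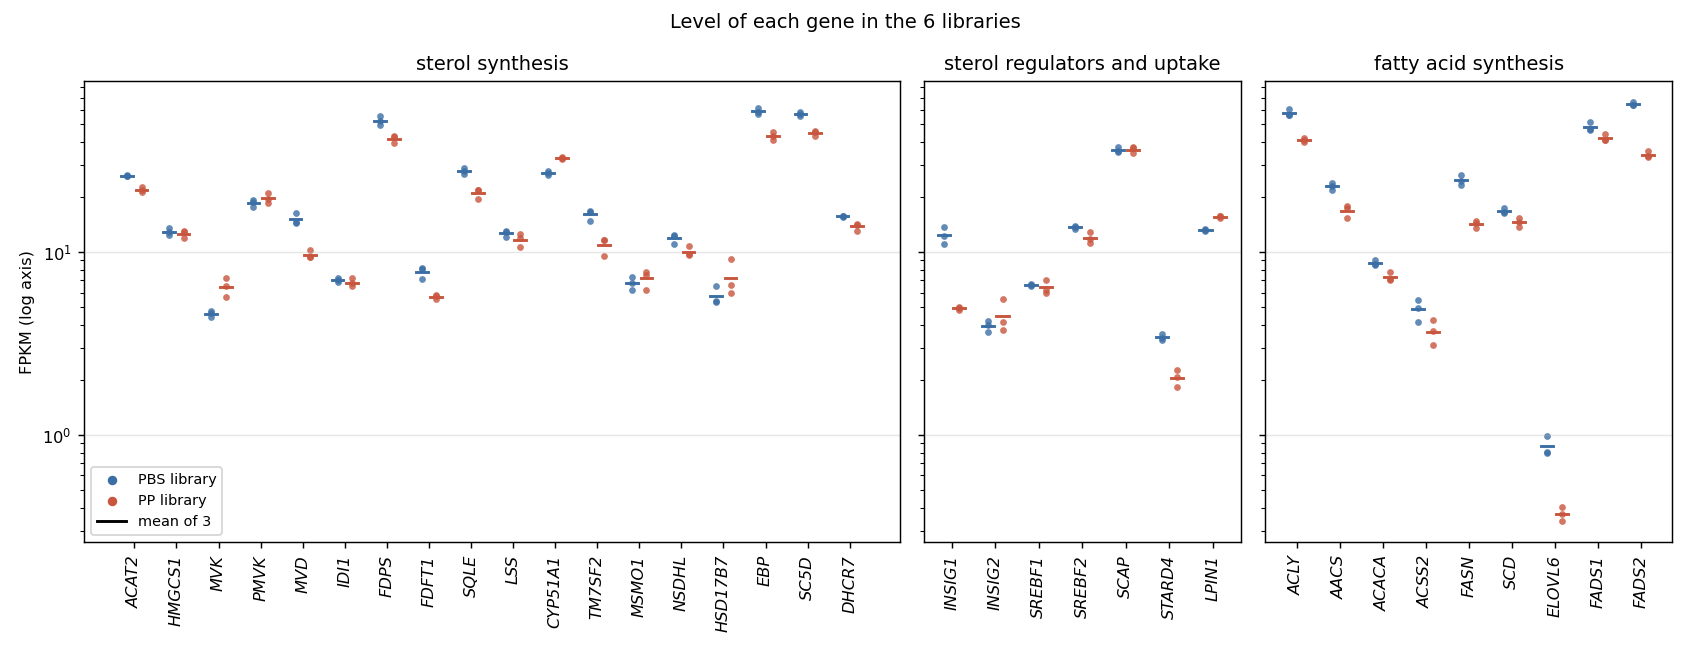
Level of each of the 34 genes in the 6 libraries, as FPKM on a log axis, with the sterol enzymes in the order of the pathway. Points are libraries and bars are means of 3, and the PP points of *INSIG1*, *FASN*, *ELOVL6* and *FADS2* stand clear below their PBS points.

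The sensors and switches of the pathway were examined first. *INSIG1* encodes the retention protein that is itself made under SREBP control, and so serves as feedback. It lies on chromosome 7 of hg19 from 155089486 to 155101945 (plus strand). Its FPKM was 12.3, 13.7 and 11.1 in PBS replicates 1, 2 and 3 and 4.93, 4.85 and 5.02 in PP replicates 1, 2 and 3. The groups did not overlap, and the lowest PBS library was above every PP library by more than the whole spread within either treatment. The mean fell by 60.0%, and the log2 fold change was -1.17 (SE 0.07, limma adjusted p = 1.66e-07). Between 919 and 1063 counts per PBS library and 388 to 436 per PP library stood behind these values.

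*INSIG2*, the relative of *INSIG1* with the same retention role and no such tight SREBP control, did not follow it. Its FPKM was 4.02, 3.64 and 4.21 with PBS and 4.17, 5.52 and 3.77 with PP, so the groups overlapped. The log2 fold change of *INSIG2* was 0.13, with a 95% interval of -0.10 to 0.37 and an adjusted p of 0.27 (limma). It was 0.0036 without PP replicate 2 and 0.23 without PP replicate 3, neither of them called. In each library the FPKM of *INSIG1* was divided by that of *INSIG2*, and this ratio was 3.15 ± 0.567 (SD, n = 3) with PBS and 1.13 ± 0.232 with PP. In PP replicate 2 the ratio was 0.879, so *INSIG2* stood above *INSIG1* in that library and in no other. The summed FPKM of the 2 genes was 16.3 ± 1.01 with PBS and 9.42 ± 0.835 with PP.

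Windows of the *INSIG1*, *SREBF2* and *STARD4* promoters are shown because these are the 3 regulators that fell, and because *SREBF2* held the core of the sterol regulatory element. The RefSeq promoters run from 250 bases before to 50 bases after each start site on GRCh38.p14, and 30 of the 34 members had one (*ACAT2*, *FASN*, *FDFT1* and *SQLE* did not). On the plus strand, the windows of *INSIG1* are chr7:155297812-155297839 with an E-box (CACGTG) and chr7:155297697-155297724 with the reverse complement of CCAAT, the letters bound by NF-Y. Those of *SREBF2* are chr22:41832963-41832990 with the core (CACCCCAC) and chr22:41832988-41833015 with a reversed CCAAT. That of *STARD4*, on the minus strand, is chr5:111512649-111512676 with a CCAAT. A second CCAAT window of *STARD4*, chr5:111512680-111512707, is not shown. Of the regulators that did not fall, *SCAP* held an E-box and *LPIN1* and *INSIG2* held CACCCC, and those windows are not shown either. Each window shown is read 5′ to 3′ on the strand of its gene, and the capitals mark the motif.
*INSIG1* E-box: ccgggcaggctCACGTGatgcgggcccc
*INSIG1* CCAAT: gccggcctcccATTGGttgcggccgcct
*SREBF2* core: gacgcgccatCACCCCACgcaccgcttc
*SREBF2* CCAAT: ttcgctcgcccATTGGctgagatgagcc
*STARD4* CCAAT: tcccgcgccagCCAATccgaacaagcgc

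Both strands of every promoter were searched for each run of letters, counting a gene once if any of its listed start sites held it. The first base of the *INSIG1* E-box lay at -55 from the start site and that of its reversed CCAAT at -170. In *SREBF2* the core began at -132 and the reversed CCAAT at -106. CCAAT was in 21 of the 30 members with a promoter, in 43.7% of the 9557 tested genes with one and in 39.7% of all 27305. Among the members it was in 13 of 15 sterol enzymes, 3 of 7 regulators and 5 of 8 fatty acid genes. The core CACCCCAC was in 1 member, *SREBF2*, and in 3.6% of the tested genes. The shorter CACCCC, which overlaps the core, was in 15 members and in 38.7% of the tested genes. The E-box was in 4 members (*INSIG1*, *LSS*, *SC5D* and *SCAP*) and in 12.8% of the tested genes. These are matches of letters within these windows and do not say whether a factor was bound.

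*STARD4*, a carrier that moves cholesterol between membranes, was at 3.55, 3.30 and 3.41 FPKM with PBS and at 2.06, 1.84 and 2.27 FPKM with PP. Every PP library was below every PBS library, from 978 to 1113 counts with PBS and 561 to 752 with PP. The mean of *STARD4* fell by 39.9%, and its log2 fold change was -0.53 (SE 0.07, limma adjusted p = 6.03e-05). *SREBF2* was at 13.8, 13.4 and 13.8 FPKM with PBS and at 12.8, 11.7 and 11.3 FPKM with PP, and the groups did not overlap. Its mean fell by 12.6%, with a log2 fold change of -0.18 (SE 0.05, limma adjusted p = 0.0101).

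The gene of the other SREBP and that of the escort protein were not called. *SREBF1* was at 6.69, 6.61 and 6.49 FPKM with PBS and at 6.23, 6.998 and 5.99 FPKM with PP, so that PP replicate 2 was above all PBS libraries and the other PP libraries were below them. The log2 fold change of *SREBF1* was -0.04 (95% interval -0.17 to 0.10, adjusted p = 0.58 from limma). *SCAP* had the highest level of the 7 regulators, at 35.3 to 37.4 FPKM with PBS and 34.7 to 37.3 FPKM with PP. Its log2 fold change was 0.01, and the interval of -0.09 to 0.10 was the narrowest of the 9 members that were not called.

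*LPIN1* encodes a phosphatidate phosphatase of glycerolipid synthesis that also restrains SREBP in the nucleus. It was read with the regulators for the second role, and its place is uncertain, since the first would set it with the fatty acid genes. It rose, against the direction of the other called regulators, from 13.4, 13.1 and 13.1 FPKM with PBS to 15.8, 15.4 and 15.7 FPKM with PP. The increase of the mean was 18.5%, larger than the spread of either group, with a log2 fold change of 0.23 (SE 0.04, limma adjusted p = 0.00056). In all, 3 of the 7 regulators were lower, 1 was higher and 3 did not pass the test, against 34.4% lower and 38.1% higher among all genes tested, and their median log2 fold change was -0.04.

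**Figure D2:**
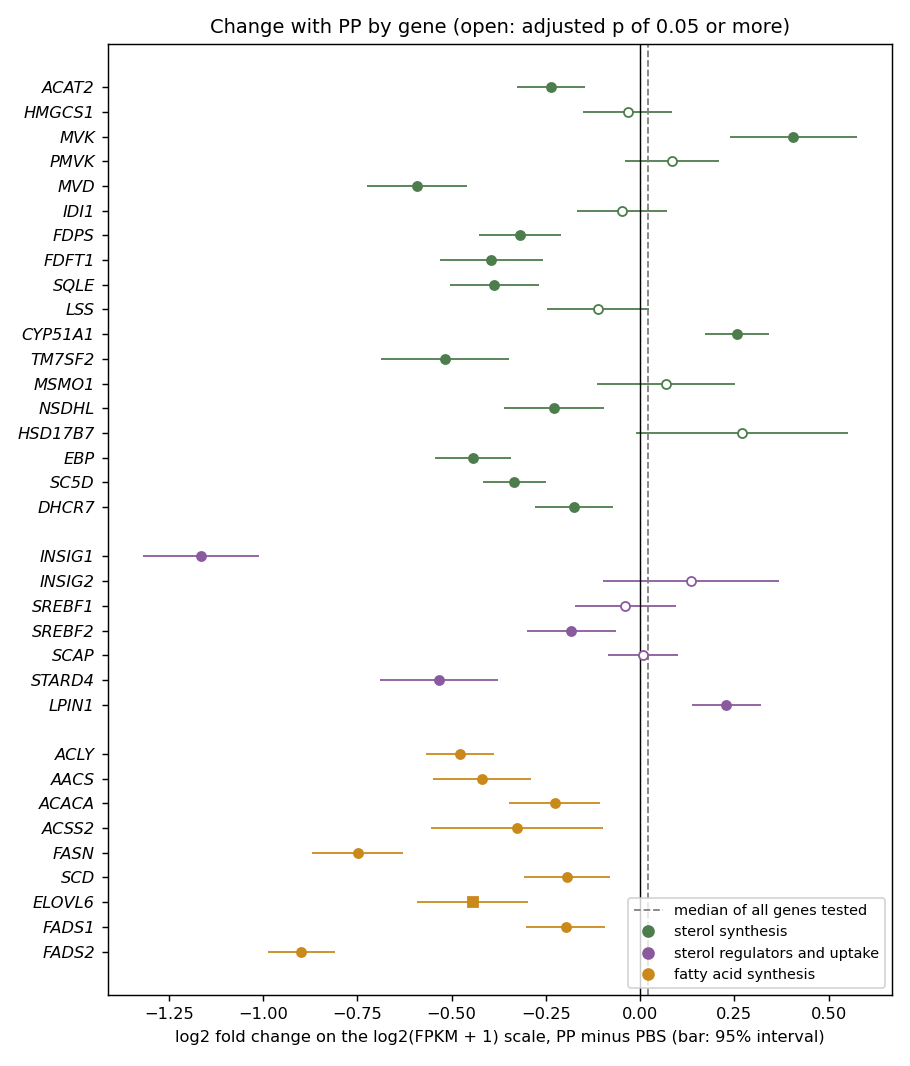
Log2 fold change of each of the 34 genes, as log2(FPKM + 1) with PP less that with PBS, and its 95% interval from limma. Filled marks have an adjusted p under 0.05, the square of *ELOVL6* comes from the fit down to an average of 0.1 FPKM, and all 9 fatty acid genes lie to the left of 0 with *INSIG1* farthest to the left.

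Sterol synthesis moved in both directions. Of its 18 enzymes, 10 fell, 2 rose and 6 did not pass the test. Among all genes tested, 34.4% were lower, 38.1% were higher and 72.5% were called in either direction. The median log2 fold change of the 18 enzymes was -0.20. Their summed FPKM was 384.1 ± 2.93 (SD, n = 3) with PBS and 327 ± 6.67 with PP, and it decreased by 14.8%. No enzyme reached a log2 fold change below -1, and the 10 that fell lay between -0.59 and -0.18.

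In the mevalonate part of the pathway, neighbouring steps did not move together. *ACAT2*, the cytosolic thiolase that joins acetyl-CoA units, fell by 15.7%, from 26.3, 26.0 and 26.0 FPKM with PBS to 22.8, 21.8 and 21.3 FPKM with PP (log2 fold change -0.24, adjusted p = 0.000389 from limma). *HMGCS1*, the synthase of the next step and a classical SREBP target, was at 12.9, 12.4 and 13.6 FPKM with PBS and 12.96, 11.9 and 13.1 FPKM with PP. The groups of *HMGCS1* overlapped throughout, and its log2 fold change of -0.03 had an interval of -0.15 to 0.09.

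*MVK*, mevalonate kinase, rose. Its FPKM was 4.65, 4.78 and 4.40 with PBS and 7.19, 6.51 and 5.68 with PP, and every PP library was above the PBS range. The increase of the mean was 40.1%, and the log2 fold change was 0.41 (SE 0.08, limma adjusted p = 0.00069), from 375 to 393 and 508 to 603 counts. *PMVK*, the kinase that acts next, was at 17.6 to 19.4 FPKM with PBS and 18.6 to 21.1 FPKM with PP and was not called (log2 fold change 0.08, interval -0.04 to 0.21).

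*MVD*, the decarboxylase that ends the mevalonate part, had the lowest log2 fold change of the sterol enzymes. It was at 16.4, 14.6 and 14.4 FPKM with PBS and 9.44, 10.2 and 9.38 FPKM with PP. The groups lay well apart, the mean fell by 35.9%, and the log2 fold change was -0.59 (SE 0.06, limma adjusted p = 8.54e-06). *MVK* and *MVD* thus moved in opposite directions in the same libraries, with *PMVK* between them in the pathway not called.

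The isoprenoid steps led to a similar split. *IDI1*, the isomerase of isopentenyl diphosphate, was at 6.90, 7.21 and 7.08 FPKM with PBS and 6.75, 6.49 and 7.18 FPKM with PP, with overlapping groups and a log2 fold change of -0.05 (interval -0.17 to 0.07). *FDPS*, which makes farnesyl diphosphate, fell by 20.3%, from 52.4 ± 2.76 (SD, n = 3) to 41.8 ± 1.96 FPKM (log2 fold change -0.32, adjusted p = 0.000178 from limma). The annotation holds 8 pseudogenes named after *FDPS* and 3 named after *IDI1*, and reads shared with these copies would make both values uncertain.

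The steps that commit the pathway to sterols fell. *FDFT1*, squalene synthase, was at 8.22, 7.10 and 8.06 FPKM with PBS and 5.74, 5.51 and 5.79 FPKM with PP, and its mean fell by 27.1% (log2 fold change -0.39, adjusted p = 0.000197 from limma). *SQLE*, the epoxidase that is a rate-limiting step, was at 28.8, 26.8 and 27.8 FPKM with PBS and 19.4, 21.99 and 21.8 FPKM with PP, and its mean fell by 24.3% (log2 fold change -0.39, adjusted p = 8.6e-05 from limma). In both genes each PP library was below each PBS library. *LSS*, the cyclase that forms lanosterol, was at 12.2 to 13.1 FPKM with PBS and 10.6 to 12.5 FPKM with PP and was not called (log2 fold change -0.11, interval -0.25 to 0.02).

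Of the enzymes that turn lanosterol into cholesterol, the first rose and the later ones mostly fell. *CYP51A1*, the lanosterol demethylase, was at 27.9, 26.3 and 27.2 FPKM with PBS and 32.6, 33.01 and 32.2 FPKM with PP. The increase was 20.2%, the groups did not overlap, and the log2 fold change was 0.26 (SE 0.04, limma adjusted p = 0.000142). An annotated gene on the same strand shares 68.2% of the exonic bases of *CYP51A1*, and 3 pseudogenes carry its name, so its value depends on how such reads were counted. *TM7SF2*, a sterol reductase that acts on the product of *CYP51A1*, fell by 31.9%, from 14.8, 16.6 and 16.7 FPKM to 11.7, 11.6 and 9.57 FPKM (log2 fold change -0.52, adjusted p = 0.000132 from limma).

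The enzymes that remove the methyl groups of the sterol ring differed among themselves. *MSMO1*, the methyl oxidase, had overlapping groups, at 6.21 to 7.33 FPKM with PBS and 6.21 to 7.78 FPKM with PP (log2 fold change 0.07, interval -0.12 to 0.25). *NSDHL*, the dehydrogenase of the same complex, fell by 15.9% (11.9 ± 0.749 to 10.04 ± 0.602 FPKM, log2 fold change -0.23, adjusted p = 0.00562 from limma). *HSD17B7*, the ketoreductase, was at 5.34, 5.43 and 6.51 FPKM with PBS and 6.57, 9.19 and 5.95 FPKM with PP. PP replicate 2 of *HSD17B7* stood far above the other libraries, its coefficient of variation with PP was 23.8%, and it was not called (log2 fold change 0.27, interval -0.01 to 0.55, adjusted p = 0.0777 from limma). The annotation holds 2 pseudogenes named after it.

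The last 3 enzymes all fell. *EBP*, the sterol isomerase, was at 61.5, 58.2 and 56.9 FPKM with PBS and 45.1, 41.1 and 42.9 FPKM with PP (mean fell by 26.9%, log2 fold change -0.44, adjusted p = 9.3e-06 from limma). *SC5D*, the sterol desaturase, was at 58.1, 56.6 and 55.5 FPKM with PBS and 43.3, 45.2 and 46.0 FPKM with PP (mean fell by 21.0%, log2 fold change -0.33, adjusted p = 2.01e-05 from limma). *DHCR7*, the reductase that yields cholesterol, fell by 12.1%, from 15.5 to 15.8 FPKM in the PBS libraries to 13.1 to 14.3 FPKM in the PP libraries (log2 fold change -0.18, adjusted p = 0.00619 from limma). Per length, *EBP* and *SC5D* were the 2 highest of the 18 enzymes with either treatment, and they changed places in the order, *EBP* first with PBS and *SC5D* first with PP, by differences in level of the size of their SDs (58.9 ± 2.38 and 56.8 ± 1.29 FPKM with PBS, 43.0 ± 2.02 and 44.8 ± 1.40 FPKM with PP).

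Overlapping annotation touched other values. On hg19 the exons of *ACAT2* share 17.2% of their bases with *TCP1* on the opposite strand, and those of *MVK* share 2.49% with *MMAB* on the opposite strand. Those of *EBP* share 36.4% with an annotated gene on the same strand, and those of *TM7SF2* share 0.528% with *VPS51* on the same strand. Among the regulators, exons of *SREBF1* share 6.75% with *RAI1* on the opposite strand. Of the fatty acid genes, *SCD* and *AACS* each have 1 pseudogene named after them. Whether the counting used strand is not given in the sources used here, although the kit named in the labels marks it.

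The fatty acid genes moved in 1 direction as grouped here. All 8 members averaging 1 FPKM or more fell, where 34.4% of all genes tested did, and none rose. With *LPIN1* set among them, 8 of 9 fell and 1 rose. With PP below PBS in every library, 7 of the 8 showed no overlap, and *ACSS2* was the exception. The median log2 fold change was -0.37. The summed FPKM of the 9 genes was 249.1 ± 8.35 (SD, n = 3) with PBS and 174.1 ± 3.01 with PP, and it decreased by 30.1%, from 0.076% to 0.081% of all FPKM in the PBS libraries to 0.0559% to 0.057% in the PP libraries.

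The enzymes that supply the carbon came first. *ACLY*, which cleaves citrate to acetyl-CoA, was at 55.9, 56.1 and 60.3 FPKM with PBS and 40.9, 41.9 and 40.0 FPKM with PP. Its mean fell by 28.7%, far beyond the spread of either group (log2 fold change -0.48, standard error 0.04, adjusted p = 2.43e-06 from limma). *ACSS2*, which makes acetyl-CoA from acetate, was at 4.17, 5.50 and 4.92 FPKM with PBS and 3.68, 3.12 and 4.23 FPKM with PP. The highest PP library of *ACSS2* was above the lowest PBS library, and its log2 fold change of -0.33 (SE 0.10, limma adjusted p = 0.0149) rested on 304 to 521 counts. Without PBS replicate 2 its adjusted p was 0.0614, and without PP replicate 2 it was 0.0635. *AACS*, which activates acetoacetate for lipid synthesis, fell by 26.3%, from 21.8 to 23.9 FPKM to 15.4 to 17.8 FPKM (log2 fold change -0.42, adjusted p = 9.19e-05 from limma).

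The synthetic core followed. *ACACA*, acetyl-CoA carboxylase, makes the malonyl-CoA that limits the pathway, and it was at 8.49, 8.58 and 9.05 FPKM with PBS and 7.13, 7.02 and 7.74 FPKM with PP. Its mean fell by 16.2% (log2 fold change -0.23, adjusted p = 0.00331 from limma). *FASN*, fatty acid synthase, builds palmitate from malonyl-CoA and lies on chromosome 17 of hg19 from 80036214 to 80056170 (minus strand). It was at 23.3, 26.4 and 24.3 FPKM with PBS and 14.9, 14.4 and 13.6 FPKM with PP, from 6120 to 6551 and 3679 to 3869 counts. The mean of *FASN* fell by 42.2%, and the log2 fold change was -0.75 (SE 0.05, limma adjusted p = 7.68e-07), so that 2 enzymes of consecutive steps fell by unequal amounts.

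*ELOVL6*, which lengthens palmitate, was the member below the filter. It was at 0.797, 0.811 and 0.986 FPKM with PBS and 0.336, 0.371 and 0.402 FPKM with PP, from 159 to 206 and 69 to 88 counts, and the groups did not overlap. In the fit that took in genes averaging 0.1 FPKM or more, its log2 fold change was -0.44 (SE 0.07, limma adjusted p = 0.000232). The pseudocount of 1 hides part of the change at this level, since the mean of *ELOVL6* fell by 57.2%.

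The desaturases fell by different amounts. *SCD*, the stearoyl-CoA desaturase that makes oleate, was at 16.5, 16.3 and 17.4 FPKM with PBS and 13.7, 14.6 and 15.3 FPKM with PP. Its mean fell by 13.3% (log2 fold change -0.19, adjusted p = 0.00588 from limma). *FADS2* and *FADS1* encode the desaturases that act in turn on polyunsaturated fatty acids. On chromosome 11 of hg19, *FADS2* runs from 61560452 to 61634826 (plus strand) and *FADS1* from 61567099 to 61596790 (minus strand). The annotated locus of *FADS1* thus lies within that of *FADS2*, and they share 490 annotated exonic bases.

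*FADS2* was at 63.8, 63.5 and 66.2 FPKM with PBS and 33.7, 35.6 and 33.03 FPKM with PP, and no member of the group had a lower log2 fold change (-0.90, standard error 0.04, adjusted p = 2.12e-08 from limma). *FADS1* was at 47.4, 46.5 and 51.3 FPKM with PBS and 43.98, 41.2 and 41.0 FPKM with PP (log2 fold change -0.20, standard error 0.05, adjusted p = 0.00326 from limma). The mean of *FADS2* fell by 47.1%, less than that of *ELOVL6* (57.2%), whose log2 fold change the pseudocount lessens. The mean of *FADS1* fell by a smaller amount, from 48.4 ± 2.55 to 42.0 ± 1.67 FPKM. *FADS2* had the highest FPKM of the 9 genes in every PBS library and was behind *FADS1* and *ACLY* in every PP library.

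**Figure D3:**
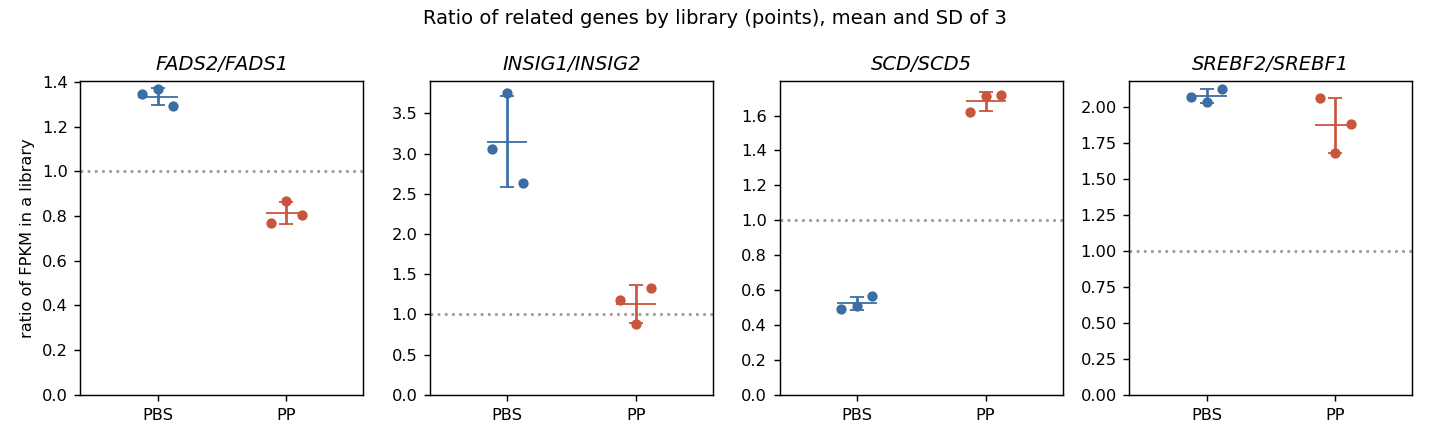
Ratio of the FPKM of related genes within each library, with points for libraries and bars for the mean and SD of 3 per treatment; the dotted line marks equal levels. *FADS2* over *FADS1* and *SCD* over *SCD5* cross the line between treatments, and *SREBF2* over *SREBF1* overlaps.

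The ratios of related genes were looked at after their values were seen and are given without a test. *FADS2* over *FADS1* was 1.35, 1.37 and 1.29 in the PBS libraries and 0.767, 0.866 and 0.806 in the PP libraries, so the more abundant of the 2 desaturase transcripts differed between treatments in every library. *SCD5*, a second stearoyl-CoA desaturase that is not a member, was at 32.0 ± 1.41 FPKM with PBS and 8.64 ± 0.247 FPKM with PP, so the mean fell by 73.0% against 13.3% for *SCD*. *SCD* over *SCD5* was 0.492 to 0.568 in the PBS libraries and 1.62 to 1.72 in the PP libraries. The summed level of the 2 stearoyl-CoA desaturases was 48.8 ± 1.07 FPKM with PBS and 23.2 ± 1.02 with PP. *SREBF2* over *SREBF1* was 2.03 to 2.12 with PBS and 1.68 to 2.06 with PP, and these ranges overlapped.

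The genes around the pathway, from lists written for this comparison, went both ways, as did all genes tested, of which 38.1% were higher and 34.4% lower. Of the 10 genes that process SREBP or carry out sterol-regulated degradation, limma called 5 as higher and 3 as lower, with a median log2 fold change of 0.13. *ERLIN1*, an endoplasmic reticulum protein of sterol-regulated degradation, had the highest log2 fold change of this list (0.88, 14.5 ± 0.695 to 27.6 ± 0.212 FPKM), followed by *MBTPS2*, the second of the 2 proteases that release SREBP (0.41, 5.86 ± 0.243 to 8.11 ± 0.290 FPKM). *PGRMC1*, a heme-binding partner of the sterol P450 enzymes, fell (-0.59), and so did *MBTPS1*, the first of these proteases (-0.28).

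Of 15 genes of sterol export, LXR response and storage, 12 were tested, with a median of -0.08. Of the 12, 5 were higher and 6 lower, against 38.1% and 34.4% of all genes tested. *OSBP*, a sterol carrier at contact sites, rose (log2 fold change 0.61), as did *NPC1*, which exports cholesterol from lysosomes (0.48). *NPC2*, the soluble partner of *NPC1*, fell from 135.5 ± 1.45 to 68.6 ± 2.99 FPKM (-0.97), so the 2 partners moved in opposite directions. *TMEM97*, a sterol-responsive protein that binds *NPC1*, also fell (-0.50).

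Of 20 other genes of fatty acid and glycerolipid synthesis, 18 were tested. Of the 18, 12 were lower and 6 higher, against 34.4% and 38.1% of all genes tested. The median of the 18 was -0.33. The lowest log2 fold changes were those of *SCD5* (-1.78) and *AGPAT2* (-1.24), which adds the second acyl chain to the glycerol backbone and went from 68.6 ± 1.52 to 28.4 ± 0.788 FPKM. The highest were those of *ACSL1*, an acyl-CoA synthetase (1.29, 15.8 ± 0.593 to 40.2 ± 0.470 FPKM), and *MID1IP1*, an activator of acetyl-CoA carboxylase (0.86). Of 10 genes of the isoprenoid branch, which leaves the pathway after farnesyl diphosphate, 9 were tested, and 7 were higher and 1 lower, with a median of 0.37. *RABGGTB*, which prenylates RAB proteins, had the highest value (0.92, 39.4 ± 0.671 to 75.3 ± 2.31 FPKM), followed by *DHDDS* of dolichol synthesis (0.52), and *PDSS2* of ubiquinone synthesis fell (-0.36).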

How the data were processed

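Poly(A) RNA libraries of 6 samples were sequenced by the study. The authors deposited FPKM values of 17177 gene symbols, 1 column per library. The paper's methods name Bowtie with hg19 and RSEM, Cufflinks and HTSeq, whereas the submitters' processing notes name fastp, HISAT2, HTSeq and GRCh38, so the build behind the values is not settled. No row has coordinates, and loci of members come from GENCODE mapped to hg19.

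The test was limma 3.58.1 (R 4.3.3) on log2(FPKM + 1), moderated with a mean-variance trend, over the 11726 genes averaging 1 FPKM or more, and Benjamini-Hochberg adjustment ran over all of them. A fold change on this scale understates that of low genes. Percent changes are of mean FPKM. Whole counts were recovered from the steps of the FPKM values (tolerance 0.01 of a count) in Python 3.11.15 with numpy 2.4.6 and pandas 2.3.3. They bound the precision of low genes and cover counting error only. Alternatives varied the pseudocount, filter, scaling, trend, replicate block, tool and libraries. Members, lists and motifs were chosen with earlier results of these data known. All members are named, with the 2 called genes farthest in each direction of every other list, and those of the closing observations were named after their values were seen. A few genes of these lists are not reported here. Reads were not analysed here.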

Additional observations from a re-analysis of the deposited data

How the results depend on the processing

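The 13 alternatives gave 427 values of members, since *ELOVL6* had a value only with no filter and *INSIG2*, *STARD4* and *ACSS2* had none with a mean FPKM of at least 5. In the values that could be had, the 25 called members kept their direction, and 28 of the 34 members kept both direction and side of the threshold. The fatty acid median of -0.37 was -0.42 with a pseudocount of 0.1, with no filter and with a mean FPKM of at least 5, and -0.44 with limma-voom on recovered counts, and -0.43 to -0.33 with each library left out. Fewer or more genes in the group account for the filters, and otherwise the cause was not tested. The median of the regulators ranged from -0.10 to 0.0016 with each library left out, reversed without PP replicate 3, where its middle gene *SREBF1* was at 0.0016. *HMGCS1* ranged from -0.0633 to 0.0078 with each library left out, reversed without PP replicate 2. *SCAP* (-0.011 to 0.0395 with each library left out) was at -0.0060 with median-ratio size factors, -0.0089 with limma-voom, -0.0077 without PBS replicate 2, -0.0036 without PP replicate 1 and -0.011 without PP replicate 2, so it has no direction here. *ACSS2* had an adjusted p of 0.0593 with no filter (0.0614 and 0.0635 without PBS or PP replicate 2). *LSS* was called as lower with limma-voom (adjusted p = 0.0378) and without PP replicate 1 (0.0436), and *HSD17B7* as higher without PBS replicate 3 (0.042) or PP replicate 3 (0.0218).

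Libraries of the same replicate number did not deviate together from their group means, with correlations of -0.21, -0.014 and -0.13 for numbers 1, 2 and 3. These values cannot show whether such libraries were handled together, and the labels do not say. Blocking on the number gave 4260 higher and 3878 lower genes, against 4464 and 4032 with no replicate block, and no call of a member changed.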

Other observations

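The genes described here were chosen after their values were seen. Of the acyl-CoA synthetases that activate fatty acids, *ACSL1*, *ACSL3* and *ACSL4* rose with PP, with log2 fold changes of 1.29, 0.56 and 0.19 (adjusted p = 1.71e-09, 1.23e-05 and 0.00511 from limma), and in each gene all 3 PP libraries were above the PBS range. *ACSL3* was at 9.62 ± 0.369 FPKM (SD, n = 3) with PBS and 14.7 ± 1.16 FPKM with PP. Of the lipins, *LPIN2* rose like *LPIN1* (21.4 ± 0.738 to 30.5 ± 0.629 FPKM, log2 fold change 0.49), and *LPIN3* fell (11.02 ± 0.346 to 8.23 ± 0.358 FPKM, log2 fold change -0.38).

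*ACACB*, the mitochondrial acetyl-CoA carboxylase, fell by 42.3%, while *ACACA* fell by 16.2%. The ratio of *ACACA* to *ACACB* was 3.33 to 3.58 in the PBS libraries and 4.75 to 5.26 in the PP libraries. The enzymes that add the last acyl chain of triglycerides both fell, *DGAT1* from 24.2 ± 1.73 to 17.4 ± 0.936 FPKM and *DGAT2* from 8.39 ± 0.803 to 5.09 ± 0.496 FPKM. Among genes that respond to LXR, *ABCA1*, the cholesterol exporter, rose from 1.70 ± 0.0791 to 2.46 ± 0.118 FPKM and *MYLIP* from 16.98 ± 0.727 to 21.2 ± 0.769 FPKM, *LPCAT3*, which remodels phospholipids, fell to 9.53 ± 0.246 FPKM with PP (log2 fold change -0.41), and *ABCG1*, with a mean FPKM under 1, was at 0.398 ± 0.0652 and 0.277 ± 0.0428 FPKM (adjusted p = 0.104 in the fit at a mean FPKM of at least 0.1).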
